A study of Homo sapiens with 15 samples.

Results

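The 60 long noncoding RNAs (lncRNAs) described here are those that separated days 9, 11 and 20 of cardiac differentiation most strongly from days 0 and 4. They were chosen by their own levels in these libraries. Counts were divided by the library total and expressed as CPM, the reads per 1e6 counted reads. Genes of biotype lncRNA whose mean reached 1 CPM on any of days 9, 11 and 20 were ranked by a score. The score was the lowest replicate CPM of the best late day plus 1, divided by the highest CPM among the 6 libraries of days 0 and 4 plus 1. Of 48777 genes listed, 12620 were lncRNAs of the annotation and 3690 met the level condition. H19 and MEG3 were left out by rule, which left 3688 genes: the 60 and 3628 others. Because the rule read days 9, 11 and 20 against days 0 and 4, the rise of the 60 over those days is a description and was not tested.

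The libraries came from H1, an established human embryonic stem cell line, with 3 libraries on each of days 0, 4, 9, 11 and 20. All cells were grown on recombinant laminin. Day 0 cells were undifferentiated cells in Nutristem medium, on LN-521 alone according to the sample table, and day 4 cells had grown to confluence on LN-521 with LN-221 up to the start of the treatment with CHIR99021, a GSK3 inhibitor that activates Wnt signalling. Cells of days 9, 11 and 20 had been through CHIR99021 and then IWP2, an inhibitor of Wnt secretion, and were kept in RPMI with B27. The study calls the day 11 cells committed cardiac progenitors. A single cell line was used, and each library is the RNA of a whole culture, so fewer cells of a type and less RNA per cell cannot be told apart. The methods call the libraries of a day biological replicates. The labels name the plate of 11 of the 15 libraries and do not say whether plates were separate differentiations.

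A lncRNA is a transcript without a long reading frame, and many lie beside genes that control development. Some start back to back with a coding gene from a shared promoter region (divergent), some run over it on the other strand (antisense), and others lie alone (intergenic). Several are the primary transcripts from which microRNAs are cut, and in heart and muscle these hosts give miR-1 and miR-133a, 2 of the best known muscle microRNAs. In the developing heart lncRNAs are known next to GATA6, HAND2, ISL1 and TBX5, all transcription factors of the cardiac lineage.

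Library totals ran from 11990302 to 33469703 counts. The day 20 library of the plate labelled 2_3 stood apart: its RNA integrity number was 6.1, and on 226 coding genes silent elsewhere its median was 8.64 reads per kilobase of exon, against 0 and 0.446 in the other day 20 libraries (plates 2 and 6_1). Reads spread at that density would make up over 25% of its count for 21 of the 60 lncRNAs and over 50% for 5 of them, with a median of 14.1%. The 5 were ENSG00000274979, MIR122HG, ENSG00000235609, IGF2-AS and DNAH10OS, the last at 99.0%. Among the day 20 libraries 31 of the 60 were highest in this library and 13 were lowest. Without it 59 of the 60 were still chosen, although the lncRNAs that met the level condition fell from 3690 to 2291.

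**Figure D1:**
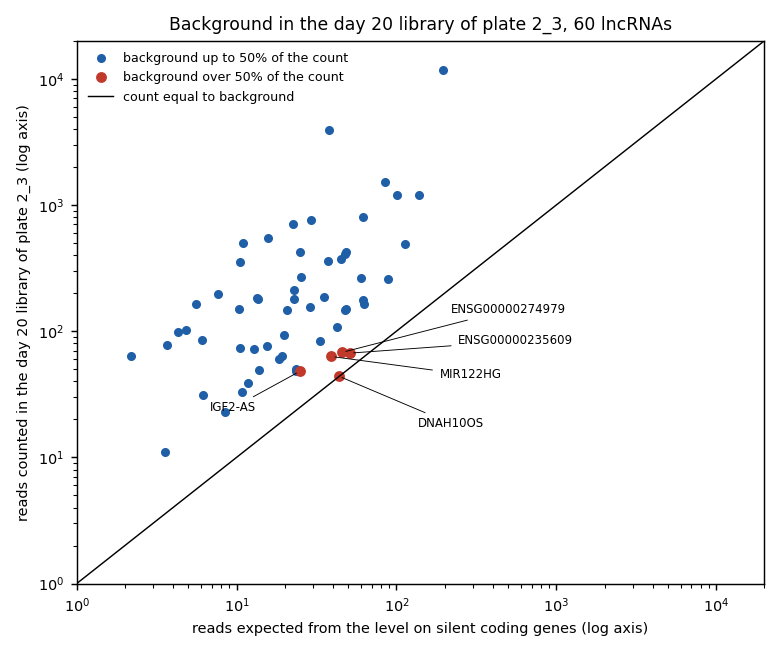
Reads counted for each of the 60 lncRNAs in the day 20 library of plate 2_3 (vertical, log axis) against the reads expected from the density on silent coding genes (horizontal, log axis). The line marks equality, no lncRNA lies below it, and the 5 named points are those where the expected reads exceed 50% of the count.

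The day 20 libraries also differed in cell markers. Summed over 12 cardiomyocyte genes, all above 1 CPM in each, the level was 54575, 53288 and 11079 CPM in plates 2, 2_3 and 6_1. The sum of 11 endoderm genes, albumin and transthyretin among them, was 12494, 622 and 16479 CPM, and the sum of 8 mesenchymal genes such as COL1A1 was 5922, 2096 and 42710 CPM. On day 11 the cardiomyocyte sums were 13406, 39957 and 10137 CPM in plates 2, 5 and 6, and on day 9 they ran from 1002 to 2087 CPM. Libraries are given below in the order of plates 2, 6_1 and unlabelled on day 9, plates 2, 5 and 6 on day 11 and plates 2, 2_3 and 6_1 on day 20.

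Of the 60, 7 contain a microRNA gene of the RefSeq table, and NEAT1 contains MIR612 of the GENCODE annotation. The mature products are shown because hosts on different chromosomes carry microRNAs with the same seed, bases 2 to 8, which is set in capitals and pairs with target messages. Sequences and positions are those of RefSeq on GRCh38.p14. MIR1-1HG on chromosome 20 and MIR133A1HG on chromosome 18 each carry a copy of miR-1 and of miR-133a. MIR100HG on chromosome 11 and MIR99AHG on chromosome 21 carry matching trios. CARMN on chromosome 5 holds miR-143 and miR-145, and MIR122HG on chromosome 18 holds miR-122.
hsa-miR-1-3p (chr20:62554351-62554372 plus and chr18:21829015-21829036 minus): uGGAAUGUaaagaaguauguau
hsa-miR-133a-3p (chr20:62564970-62564991 plus and chr18:21825712-21825733 minus): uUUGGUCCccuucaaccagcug
hsa-miR-100-5p (MIR100HG, chr11:122152275-122152296 minus): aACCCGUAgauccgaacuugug
hsa-miR-99a-5p (MIR99AHG, chr21:16539101-16539122 plus): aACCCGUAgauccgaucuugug
hsa-let-7a-5p (MIR100HG, chr11:122146568-122146589 minus): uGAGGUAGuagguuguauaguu
hsa-let-7c-5p (MIR99AHG, chr21:16539838-16539859 plus): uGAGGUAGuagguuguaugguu
hsa-miR-125b-5p (MIR100HG, chr11:122099809-122099830 minus and MIR99AHG, chr21:16590253-16590274 plus): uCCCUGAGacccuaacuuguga
hsa-miR-143-3p (CARMN, chr5:149428978-149428998 plus): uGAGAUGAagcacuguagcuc
hsa-miR-145-5p (CARMN, chr5:149430661-149430683 plus): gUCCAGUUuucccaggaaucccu
hsa-miR-122-5p (MIR122HG, chr18:58451088-58451109 plus): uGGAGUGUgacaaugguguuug
The libraries measured the long host transcripts, not the mature microRNAs.

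RefSeq promoter windows, 250 bases before to 50 after the start, were found by symbol for 38 of the 60. The RefSeq start is not always the GENCODE start, so some windows do not cover the latter. The 2 starts were the same for LINC00261, ISL1-DT and GATA3-AS1. They lay 910 bases apart for GATA6-AS1, 1330 for HAND2-AS1 and 455875 for MIR100HG. The letters AGATAA or TGATAA, read on either strand as a GATA factor motif, stood in 11 of the 38 (28.9%) and in 16.3% of all 34943 windows. TGTTTAC, a forkhead factor motif, stood in 4 (10.5%) against 3.42%, and AGGTGT, a T-box motif, in 2 (5.26%) against 11.4%, both on either strand. TATAAA, on the sense strand alone, stood in 3 (7.89%) against 7.35%. These are matches of letters, not measured binding. Windows of 3 lncRNAs whose day course is described below are shown. GATA letters are in capitals for LINC00881 and ISL1-DT, and forkhead letters for LINC00261. Of the windows of leading lncRNAs looked at singly, only these 3 held such letters. Those of GATA6-AS1, HAND2-AS1 and CARMN, for example, held none. The RefSeq start of LINC00881 lies 247 bases downstream of the start in the annotation used for positions here. Its window lies almost wholly inside the gene of that annotation, and the marked GATA letters lie after that start. The ISL1-DT window also covers the start of ISL1 on the other strand.
LINC00881 (chr3:157089631-157089930, plus): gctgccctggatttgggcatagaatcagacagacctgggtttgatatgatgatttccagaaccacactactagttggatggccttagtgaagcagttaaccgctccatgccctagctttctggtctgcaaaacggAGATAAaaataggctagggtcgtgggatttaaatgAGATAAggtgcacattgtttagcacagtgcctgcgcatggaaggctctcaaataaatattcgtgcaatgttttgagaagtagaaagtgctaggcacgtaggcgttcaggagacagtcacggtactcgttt
ISL1-DT (chr5:51383283-51383582, minus): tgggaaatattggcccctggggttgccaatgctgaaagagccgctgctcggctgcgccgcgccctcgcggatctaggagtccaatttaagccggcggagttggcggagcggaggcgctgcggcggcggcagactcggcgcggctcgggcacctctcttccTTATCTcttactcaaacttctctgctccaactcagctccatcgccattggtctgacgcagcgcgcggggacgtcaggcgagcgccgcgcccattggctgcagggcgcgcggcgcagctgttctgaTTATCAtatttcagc
LINC00261 (chr20:22578593-22578892, minus): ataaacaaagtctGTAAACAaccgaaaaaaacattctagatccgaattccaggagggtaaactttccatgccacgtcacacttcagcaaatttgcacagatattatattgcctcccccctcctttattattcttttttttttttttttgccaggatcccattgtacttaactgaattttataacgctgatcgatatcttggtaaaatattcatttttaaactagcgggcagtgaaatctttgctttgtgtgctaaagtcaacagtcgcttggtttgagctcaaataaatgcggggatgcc

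On days 0 and 4 most of the 60 were close to silent: 43 stayed at or below 1 CPM in all 6 early libraries. NEAT1, the scaffold RNA of nuclear paraspeckles, was the most abundant there with up to 88.7 CPM. The score ran from 63.8 for GATA6-AS1 to 3.37 for LINC00561, with a median of 5.31. All 3 libraries exceeded every early library for 60 lncRNAs on day 11, for 55 on day 9 and for 58 on day 20, and 53 did so in all 9 late libraries. The 5 that did not on day 9 were LINC00881, PRDM16-DT, TRDN-AS1, MIR100HG and MIR133A1HG. The 2 that did not on day 20 were PCAT14 and ENSG00000224865. The highest mean fell on day 9 for 17, on day 11 for 19 and on day 20 for 24.

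**Figure D2:**
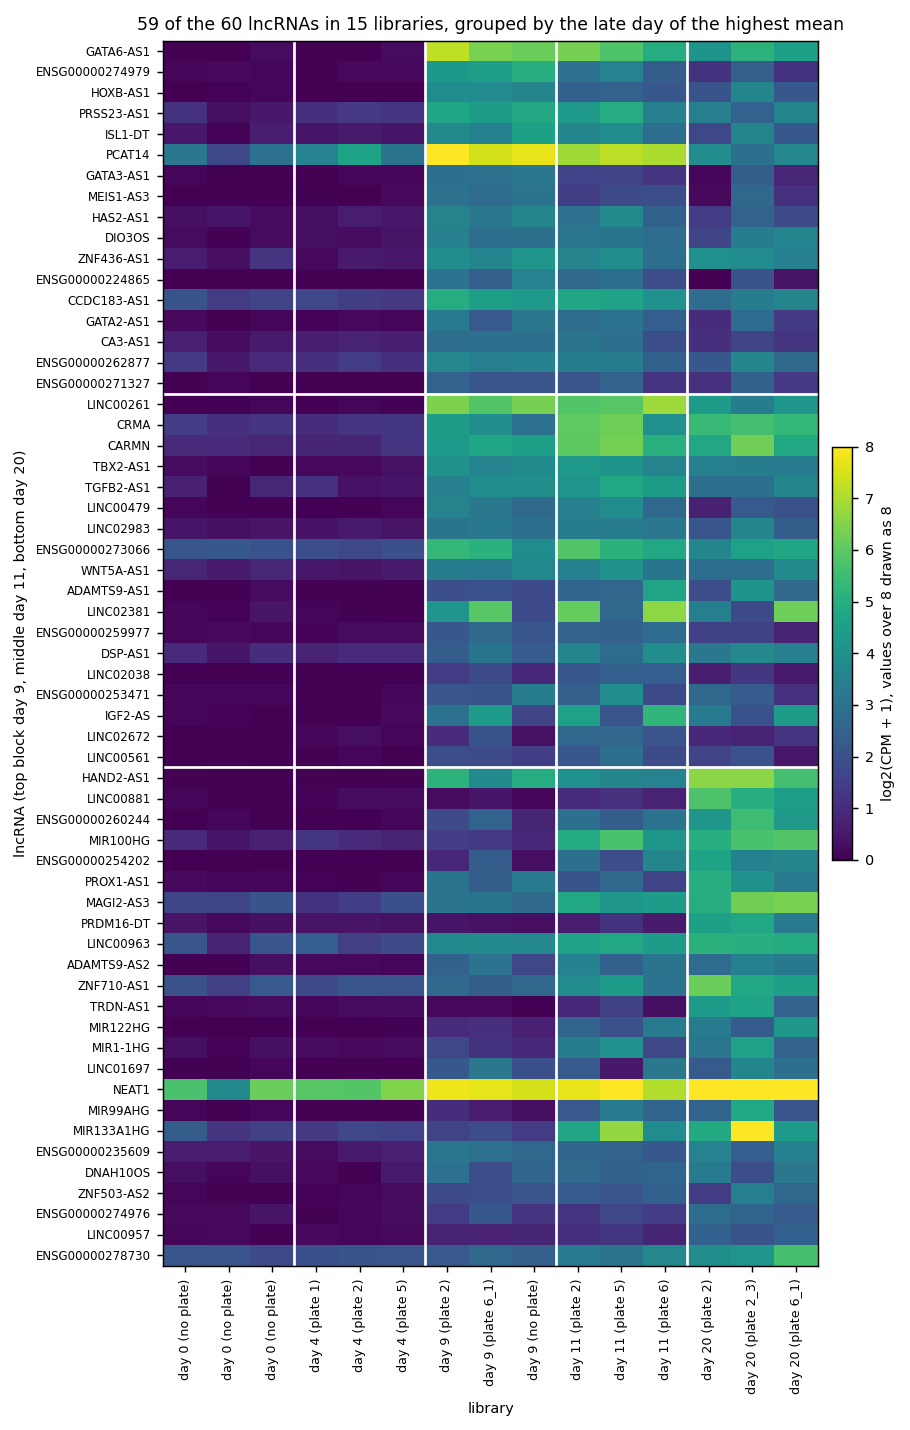
log2(CPM + 1) of 59 of the 60 lncRNAs (rows) in the 15 libraries (columns, by day and plate), with rows in blocks by the late day of the highest mean. The first 6 columns are dark for most rows, and 17, 18 and 24 of those drawn form the day 9, day 11 and day 20 blocks.

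By position 27 of the 60 (45.0%) overlapped their nearest coding gene on the other strand, 7 (11.7%) overlapped it on the same strand, 4 (6.67%) were divergent and 22 (36.7%) were intergenic. Among the 3628 other lncRNAs these shares were 48.3%, 11.4%, 10.2% and 30.0%. Per gene the 60 had a median exon length of 3318 bases in 4.5 exon blocks, against 2631 bases in 3 blocks for the others. Exons of 36 of the 60 shared bases with an exon of another gene. The setting that assigned reads to strands is not given in the sources used here, so that for those bases reads of a lncRNA and of its partner cannot be told apart. More than 50% of the exon bases were shared in ENSG00000260244 with GUCY1A1 (99.9%), ENSG00000274976 with PKP2 (99.5%) and ENSG00000273066 with CCDC183 and its surroundings (54.2%), and their levels are uncertain.

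The largest score belonged to GATA6-AS1 (chr18:22164886-22169878, minus strand), which runs antisense to GATA6, a zinc-finger factor of heart and endoderm. It was at 0 to 0.167 CPM on days 0 and 4. On day 9 it reached 148, 83.5 and 73.5 CPM. On day 11 it was at 81.6, 54.4 and 30.2 CPM and on day 20 at 16.6, 34.9 and 22.1 CPM. Every late library lay far above the early ones, and every day 20 library but that of plate 2_3 lay below every day 11 library. GATA6 itself went from 0.120 to 0.306 CPM early to 241, 132 and 179 CPM on day 9 and 55.6, 66.0 and 56.6 CPM on day 20. Between day 4 and day 9 GATA6 rose by a log2 fold change of 9.70 ± 0.35 (SE), adjusted p = 1.3e-06.

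HAND2-AS1 (chr4:173527270-173659696, plus strand) lies antisense to HAND2, a helix-loop-helix factor of the developing heart. It was at 0 to 0.0414 CPM early, 34.9, 12.8 and 29.9 CPM on day 9 and 15.1, 11.4 and 10.8 CPM on day 11. On day 20 it stood at 96.7, 97.7 and 49.1 CPM, above every library of the other days. HAND2 was at 192, 93.2 and 162 CPM on day 9, 96.6, 43.9 and 48.8 CPM on day 11 and 174, 135 and 125 CPM on day 20. Its late means were likewise lowest on day 11. HAND2 rose from day 4 to day 9 by a log2 fold change of 10.37 ± 0.45 (SE), adjusted p = 4.3e-06.

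TBX2-AS1 runs antisense to TBX2, a T-box repressor of chamber genes in the atrioventricular canal. The lncRNA was at 0 to 0.290 CPM early, 16.4, 11.0 and 13.1 CPM on day 9, 18.5, 16.7 and 11.0 CPM on day 11 and 10.2, 9.51 and 8.54 CPM on day 20. TBX2 shares no exon bases with it and rose from day 4 to day 9 by a log2 fold change of 8.60 ± 0.43 (SE), adjusted p = 7.0e-06. ISL1-DT (chr5:51372736-51383332, minus strand) starts 116 bases from ISL1, the LIM-homeobox factor of second heart field progenitors, and its promoter window is printed above. It was at 0.0598 to 0.584 CPM early, 12.7, 10.5 and 22.2 CPM on day 9, 11.8, 13.5 and 6.43 CPM on day 11 and 2.31, 11.3 and 3.59 CPM on day 20, where the high value is that of plate 2_3 with 34.9% of expected background. ISL1 was at 80.3, 29.7 and 115 CPM on day 9, 26.9, 25.0 and 25.5 CPM on day 11 and 6.78, 7.08 and 9.74 CPM on day 20. It rose from day 4 to day 9 by a log2 fold change of 7.00 ± 0.61 (SE), adjusted p = 9.3e-05 and then fell from day 11 to day 20, with a log2 fold change of -1.71 ± 0.31 (SE), adjusted p = 0.0425.

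PRDM16-DT (chr1:3059611-3069091, minus strand) starts 77 bases from PRDM16, a chromatin regulator of compact heart muscle. Its course was late: 0.120 to 0.350 CPM early, 0.369, 0.285 and 0.218 CPM on day 9, 0.543, 1.25 and 0.485 CPM on day 11 and 22.5, 26.9 and 9.14 CPM on day 20. Day 9 overlapped the early days, and day 20 lay above every other library. PRDM16 followed with 4.24, 1.71 and 1.20 CPM on day 9 and 43.5, 72.3 and 17.1 CPM on day 20. Between day 4 and day 9 PRDM16 had a log2 fold change of 0.17 ± 0.44 (SE), adjusted p = 0.776, and between day 4 and day 20 it rose by a log2 fold change of 4.31 ± 0.47 (SE), adjusted p = 0.0012.

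**Figure D3:**
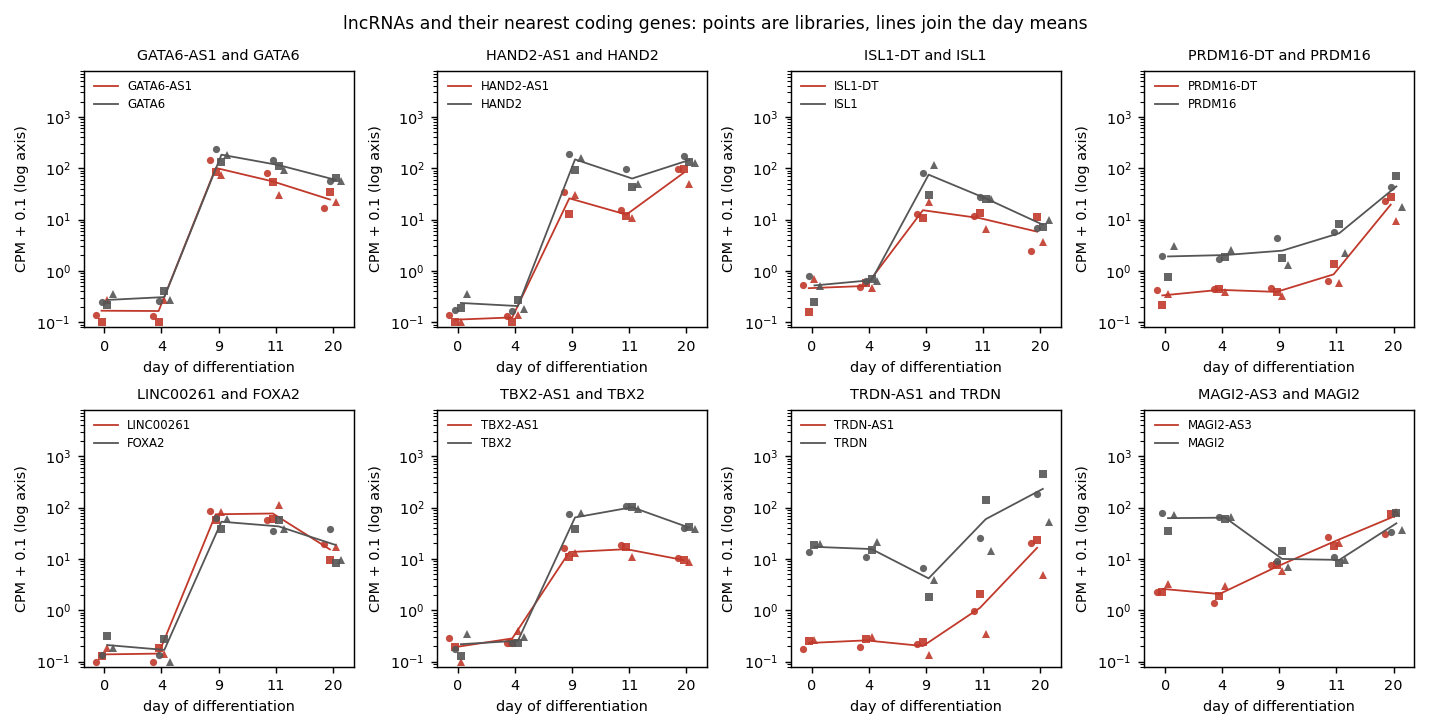
CPM + 0.1 (log axis) by day for 8 lncRNAs (red) and their nearest coding genes (grey). Points are libraries (circle, square and triangle for libraries 1 to 3, the square on day 20 being plate 2_3) and lines join day means. GATA6-AS1, HAND2-AS1, ISL1-DT, LINC00261 and TBX2-AS1 step up together with their neighbours between days 4 and 9, PRDM16-DT and TRDN-AS1 have their highest points on day 20, and MAGI2 is lower on days 9 and 11 than on days 0 and 4 while MAGI2-AS3 climbs.

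LINC00261 (chr20:22547663-22578642, minus strand) is intergenic, 2356 bases from FOXA2, a forkhead factor of definitive endoderm. It had the second score of the 60. Early libraries held 0 to 0.0875 CPM, day 9 84.6, 56.0 and 81.5 CPM, day 11 56.3, 60.1 and 114 CPM and day 20 19.4, 9.31 and 17.0 CPM, so that day 20 lay below days 9 and 11 without overlap. FOXA2 was at 0 to 0.209 CPM early, 62.7, 37.4 and 59.0 CPM on day 9, 35.0, 56.2 and 37.7 CPM on day 11 and 38.3, 8.17 and 9.30 CPM on day 20. It rose from day 4 to day 9 by a log2 fold change of 9.51 ± 0.51 (SE), adjusted p = 9.0e-06. The endoderm sum ran from 391 to 797 CPM on day 9, from 826 to 2099 CPM on day 11 and from 622 to 16479 CPM on day 20. Its part in these levels was not tested.

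Antisense partners of 4 other patterning factors, HOXB2, GATA3, MEIS1 and GATA2, had their highest mean on day 9. HOXB-AS1 lies within the HOXB cluster beside HOXB2. Its exons share 24.0% of their bases with HOXB3 and 5.58% with HOXB2. It was at 13.9, 13.4 and 11.6 CPM on day 9, 4.53, 4.73 and 3.52 CPM on day 11 and 3.20, 11.6 and 3.59 CPM on day 20. GATA3-AS1 was at 6.83, 6.94 and 7.92 CPM, 2.04, 2.14 and 1.29 CPM and 0.112, 4.08 and 0.816 CPM on the same days, and MEIS1-AS3, antisense to the homeobox factor MEIS1, was at 7.13, 5.89 and 7.38 CPM, 1.81, 2.54 and 2.75 CPM and 0.149, 5.42 and 1.20 CPM. In each of the 3 the day 9 libraries lay above those of day 11, and on day 20 the library of plate 2_3 was the highest. GATA2-AS1 was at 0.0299 to 0.147 CPM early and at 3.75 to 9.10 CPM on day 9. PROX1-AS1, antisense to the homeobox factor PROX1, instead peaked on day 20, at 32.2, 16.4 and 8.92 CPM, after 7.38, 4.18 and 8.90 CPM on day 9 and 3.26, 5.48 and 2.10 CPM on day 11. ZNF503-AS2 reached 1.71 to 9.89 CPM on day 20. ENSG00000253471, divergent to NKX2-6 and 385 bases from it, was at 1.20 to 13.9 CPM over the late libraries.

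Of the 7 microRNA hosts 6 had their highest mean on day 11 or 20, and DIO3OS had it on day 9. MIR100HG was at 0.359 to 1.38 CPM early and 1.72, 1.57 and 0.908 CPM on day 9, where it still overlapped the early libraries. On day 11 it reached 29.5, 51.1 and 17.7 CPM and on day 20 32.2, 51.0 and 56.7 CPM. MIR99AHG, the host of the matching trio, was at 0 to 0.0834 CPM early and 1.05, 0.570 and 0.254 CPM on day 9. It was at 3.67, 9.07 and 4.93 CPM on day 11 and 4.95, 26.2 and 3.43 CPM on day 20. Plate 2_3, the library with raised reads on silent genes, stood far above the others. ENSG00000270071, a lncRNA on the other strand there, was at 0.186, 3.38 and 0.218 CPM on day 20.

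The muscle hosts were also at their highest on days 11 and 20. MIR133A1HG was at 1.31 to 4.08 CPM early and 2.09, 2.71 and 1.60 CPM on day 9, then at 25.6, 102 and 13.8 CPM on day 11 and 27.9, 251 and 19.5 CPM on day 20. MIR1-1HG was at 0.0598 to 0.250 CPM early, 2.34, 1.24 and 0.908 CPM on day 9, 9.33, 15.7 and 2.22 CPM on day 11 and 7.82, 22.6 and 4.90 CPM on day 20. Both were highest on day 11 in the library of plate 5 and on day 20 in that of plate 2_3. Plate 5 also had the highest cardiomyocyte sum of day 11 (39957 CPM), whereas on day 20 the sums of plates 2 and 2_3 were alike (54575 and 53288 CPM). The part of cell content in these levels was not tested. Expected background was 2.97% of the MIR1-1HG count and 0.959% of the MIR133A1HG count in plate 2_3.

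CRMA (chr20:62544165-62551526, minus strand) overlaps MIR1-1HG head to head without shared exon bases. It was at 1.04 to 1.73 CPM early, 20.4, 14.0 and 7.09 CPM on day 9, 64.3, 73.9 and 15.6 CPM on day 11 and 41.6, 48.4 and 38.8 CPM on day 20. Its day 9 levels already lay above every early library by a wide margin, whereas those of MIR1-1HG were at most 2.34 CPM. CARMN (chr5:149406689-149432835, plus strand), named for cardiac mesoderm and the host of miR-143 and miR-145, was at 0.785 to 1.33 CPM early and 18.8, 25.9 and 21.7 CPM on day 9. On day 11 it was at 62.1, 78.9 and 32.5 CPM and on day 20 at 26.0, 76.4 and 28.1 CPM, so that days 11 and 20 overlapped. The nearest coding gene, IL17B, starts back to back with CARMN and was at 0.0475 to 2.87 CPM in all 15 libraries.

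MIR122HG, the host of the liver microRNA miR-122, was at 0 to 0.0414 CPM early, 0.984, 1.09 and 0.618 CPM on day 9, 5.07, 2.99 and 8.65 CPM on day 11 and 9.01, 4.02 and 17.8 CPM on day 20. On days 11 and 20 its order over the libraries was that of the endoderm sums (1334, 826 and 2099 CPM on day 11, and 12494, 622 and 16479 CPM on day 20), an order that the mesenchymal and epithelial sums also had. Expected background made up 62.1% of its count in plate 2_3. The part of cell content was not tested. DIO3OS, antisense to the deiodinase gene DIO3 and host of miR-1247, was at 0.0299 to 0.331 CPM early and 2.16 to 11.2 CPM across the late libraries.

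**Figure D4:**
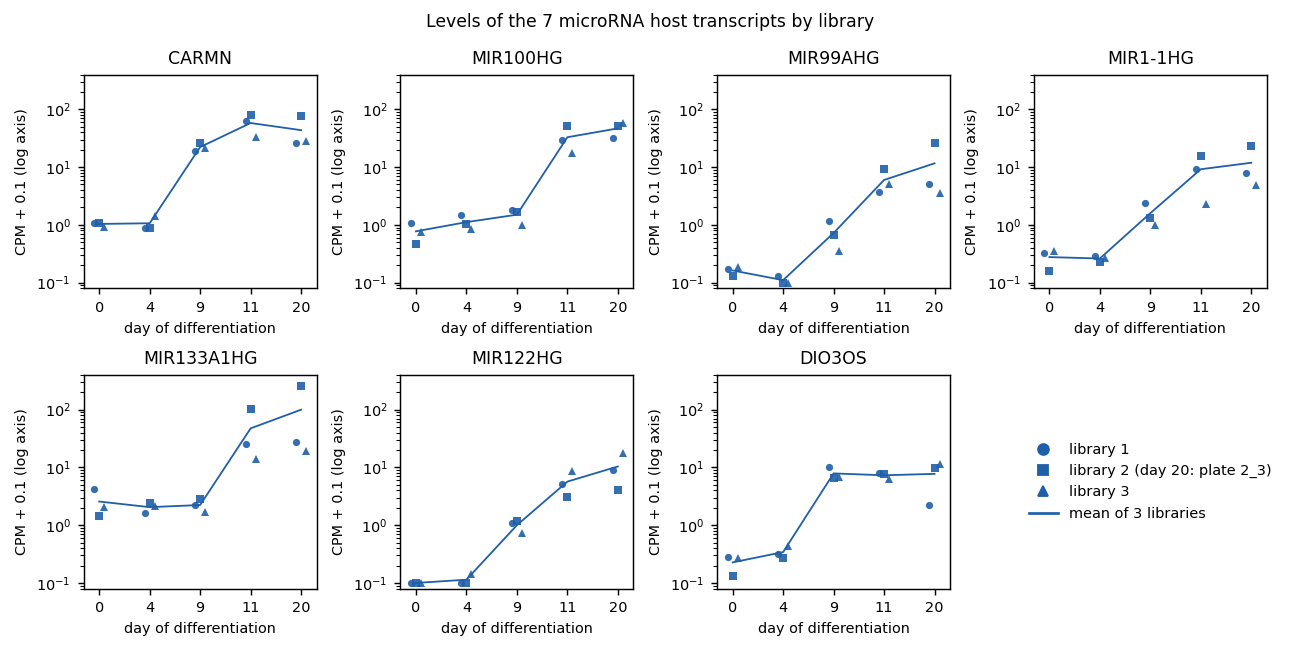
CPM + 0.1 (log axis) of the 7 microRNA hosts by day. Points are libraries and lines join the means of 3. CARMN and DIO3OS are up by day 9, MIR100HG and MIR133A1HG step up between days 9 and 11, and MIR99AHG, MIR1-1HG and MIR133A1HG have their highest point in the plate 2_3 library of day 20.

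TRDN-AS1 and DSP-AS1 lie antisense to genes for contraction and cell junctions. TRDN-AS1, whose partner TRDN encodes triadin, a protein of the calcium release unit of muscle, was at 0.0735 to 0.207 CPM early and 0.123, 0.143 and 0.0363 CPM on day 9. It reached 0.860, 1.94 and 0.243 CPM on day 11 and 20.5, 23.7 and 4.84 CPM on day 20. TRDN took another path: 10.8 to 21.1 CPM early, 6.70, 1.71 and 3.82 CPM on day 9, 25.3, 139 and 14.5 CPM on day 11 and 181, 461 and 51.7 CPM on day 20. It fell from day 4 to day 9, with a log2 fold change of -2.02 ± 0.46 (SE), adjusted p = 0.008, and was higher on day 20 than on day 4 by a log2 fold change of 3.64 ± 0.66 (SE), adjusted p = 0.0069. DSP-AS1, antisense to the desmosome gene DSP, was at 0.388 to 1.00 CPM early and at 4.07 to 14.1 CPM late, and DSP rose from day 4 to day 9 by a log2 fold change of 2.26 ± 0.19 (SE), adjusted p = 4.3e-05.

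MAGI2-AS3 (chr7:79452877-79471208, plus strand) and its neighbour MAGI2, a scaffold protein gene, went opposite ways at first. The lncRNA was at 1.26 to 3.17 CPM early, 7.38, 7.65 and 5.74 CPM on day 9, 26.3, 17.8 and 20.3 CPM on day 11 and 30.6, 76.1 and 82.6 CPM on day 20, and no 2 late days overlapped. MAGI2 was at 35.1 to 79.1 CPM early, 8.92, 14.0 and 6.76 CPM on day 9 and 33.1, 78.5 and 36.4 CPM on day 20. From day 4 to day 9 it fell, with a log2 fold change of -2.77 ± 0.24 (SE), adjusted p = 6.1e-05, and from day 11 to day 20 it rose by a log2 fold change of 2.27 ± 0.29 (SE), adjusted p = 0.0196.

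Signalling and matrix genes had antisense partners too. TGFB2-AS1, antisense to the ligand gene TGFB2, was at 0.0299 to 1.19 CPM early, 10.1, 13.7 and 14.6 CPM on day 9, 17.1, 26.8 and 19.7 CPM on day 11 and 6.66, 6.57 and 11.7 CPM on day 20. Its exons share 38.0% of their bases with TGFB2, whose own level was 166, 291 and 202 CPM on day 11. WNT5A-AS1, antisense to the Wnt ligand gene WNT5A, was at 0.350 to 0.834 CPM early and 6.32 to 16.0 CPM late. HAS2-AS1, antisense to hyaluronan synthase 2, was at 8.03 to 11.4 CPM on day 9 and 1.68 to 4.85 CPM on day 20. HAS2 itself was at 1020.5, 471 and 1607 CPM on day 9 and 58.2, 111 and 149 CPM on day 20. ADAMTS9-AS2 and ADAMTS9-AS1, both antisense to the metalloprotease gene ADAMTS9 and 92152 bases apart, were at 2.29 to 10.5 and 2.51 to 24.5 CPM over the late libraries. PRSS23-AS1, antisense to a serine protease gene, was at 25.2, 20.0 and 27.6 CPM on day 9, 18.7, 30.1 and 10.1 CPM on day 11 and 9.61, 4.72 and 11.2 CPM on day 20.

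Among intergenic lncRNAs LINC00881 (chr3:157089634-157135557, plus strand) had the largest fitted change of the 60 between days 11 and 20. It was at 0 to 0.175 CPM early, 0.184, 0.380 and 0.109 CPM on day 9, 1.04, 1.20 and 0.687 CPM on day 11 and 53.4, 32.0 and 21.2 CPM on day 20. Its nearest coding gene, CCNL1, lies 10951 bases away and ranged from 81.7 to 155 CPM over all 15 libraries. PCAT14, first named in prostate cancer, ran the other way: 2.30 to 23.9 CPM early, 256, 179 and 213 CPM on day 9, 115, 147 and 129 CPM on day 11 and 13.9, 6.83 and 11.9 CPM on day 20. Its day 20 libraries overlapped the early ones. NEAT1 was at 219, 205 and 177 CPM on day 9, 212, 329.8 and 133 CPM on day 11 and 1942, 748 and 388 CPM on day 20, after 13.1 to 88.7 CPM early. LINC00963 was at 0.687 to 4.21 CPM early and went from 12.8, 12.7 and 12.4 CPM on day 9 to 23.0, 26.7 and 20.2 CPM on day 11 and 34.0, 31.2 and 29.4 CPM on day 20.

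ENSG00000274979, 16499 bases from the lysozyme gene LYZ, was at 18.4, 21.1 and 32.3 CPM on day 9, 7.15, 10.6 and 4.16 CPM on day 11 and 1.27, 4.34 and 1.25 CPM on day 20. ENSG00000254202, on chromosome 8 near RALYL, was at 0.861, 4.18 and 0.218 CPM on day 9 and 24.1, 10.4 and 11.5 CPM on day 20. ENSG00000260244, which lies almost wholly within exons of the guanylate cyclase gene GUCY1A1, was at 2.58, 4.90 and 0.763 CPM on day 9, 6.52, 4.09 and 7.28 CPM on day 11 and 17.9, 44.7 and 18.7 CPM on day 20. GUCY1A1 was at 51.7, 190.2 and 12.8 CPM on day 9, 102, 48.2 and 164 CPM on day 11 and 158, 292 and 411 CPM on day 20. Both had their lowest late value in the unlabelled day 9 library.

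LINC02381 and IGF2-AS differed widely between libraries of the same day. LINC02381 was at 17.1, 59.8 and 2.51 CPM on day 9, 67.4, 5.53 and 98.3 CPM on day 11 and 9.98, 2.49 and 73.5 CPM on day 20. IGF2-AS was at 6.89, 19.8 and 2.22 CPM, 23.0, 3.29 and 37.2 CPM and 8.60, 3.06 and 20.2 CPM on the same days. Its exons share 11.6% of their bases with IGF2 on the other strand, and reads of the 2 cannot be told apart there. IGF2 had the same order on each day, at 377, 999 and 104 CPM, 2063, 285 and 2350 CPM and 2096, 323 and 5535 CPM. On each late day LINC02381 and IGF2-AS were highest in the plate 6 or 6_1 library. The mesenchymal, endoderm and epithelial sums were highest in the same libraries, the mesenchymal ones with 2187, 4558 and 2378 CPM on day 9, 7019, 2800 and 13159 CPM on day 11 and 5922, 2096 and 42710 CPM on day 20. The part of cell content in these levels was not tested.

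The other 20 are accounted for in brief. Antisense to their neighbour were ZNF436-AS1, ZNF710-AS1, CCDC183-AS1 and CA3-AS1, of which ZNF710-AS1 was the highest, with 72.3, 26.8 and 21.9 CPM on day 20. Same-strand overlaps were ENSG00000273066, ENSG00000274976, ENSG00000235609, ENSG00000259977 and DNAH10OS, and the first of these was at 11.7 to 55.3 CPM over the late libraries. Intergenic were LINC00479, LINC02983, LINC02038, LINC01697, LINC00957, LINC02672, LINC00561, ENSG00000224865, ENSG00000262877, ENSG00000271327 and ENSG00000278730, of which ENSG00000278730 reached 14.6, 17.1 and 49.8 CPM on day 20.

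Compared per length, by the deposited TPM values (length-corrected levels, mean ± SD of 3 libraries), the leading lncRNA of the 60 changed from day to day. On day 9 it was GATA6-AS1 at 198 ± 61.5 TPM, ahead of PCAT14 at 158 ± 16.1 TPM, a gap within the spread of GATA6-AS1. On day 11 LINC02381 at 162 ± 136 TPM and TGFB2-AS1 at 147 ± 35.9 TPM led and did not differ beyond the spread of LINC02381. On day 20 NEAT1 at 190.2 ± 158 TPM and LINC00881 at 117 ± 58.4 TPM led, again within their spread, and GATA6-AS1 stood at 55.3 ± 19.1 TPM.

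The rule did not read the counts of the coding genes next to the 60, so their change against day 4 was tested. The lncRNAs themselves were chosen from the same libraries. Where a neighbour shares exon bases with its lncRNA, the rule may have read some of its reads, and the pooled counts include such neighbours. Most of those tested rose. There were 59 distinct neighbours, chosen by position alone, and 57 of them were listed in the counts. From day 4 to day 9, 42 of the 53 with enough counts were higher and 3 lower at an adjusted p under 0.05 (edgeR quasi-likelihood test), where 24.3% of all genes tested were called higher and 24.7% lower. From day 4 to day 11, 43 of 53 were higher and 3 lower, against 23.1% and 23.8% of all genes. From day 4 to day 20, 37 of 54 were higher and 1 lower, against 17.6% and 13.3%. The median log2 fold change of the neighbours was 3.44, 3.64 and 3.78 for these days, and that of all genes tested was 0.01, 0.04 and 0.11.

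The 3 comparisons share the day 4 libraries. Of the neighbours of the other 3628 lncRNAs, chosen the same way, 31.3% were higher on day 9, 30.8% on day 11 and 22.6% on day 20. Because 21 neighbours share exon bases with their lncRNA, they were also counted apart. Without shared exons 24 of 34 were higher on day 9 (70.6%), 25 of 34 on day 11 (73.5%) and 20 of 35 on day 20 (57.1%). With shared exons 18 of 19 were higher on day 9, 18 of 19 on day 11 and 17 of 19 on day 20. Leaving out the plate 2_3 library, 43 neighbours were called in either direction between days 4 and 20, and with it 38.

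**Figure D5:**
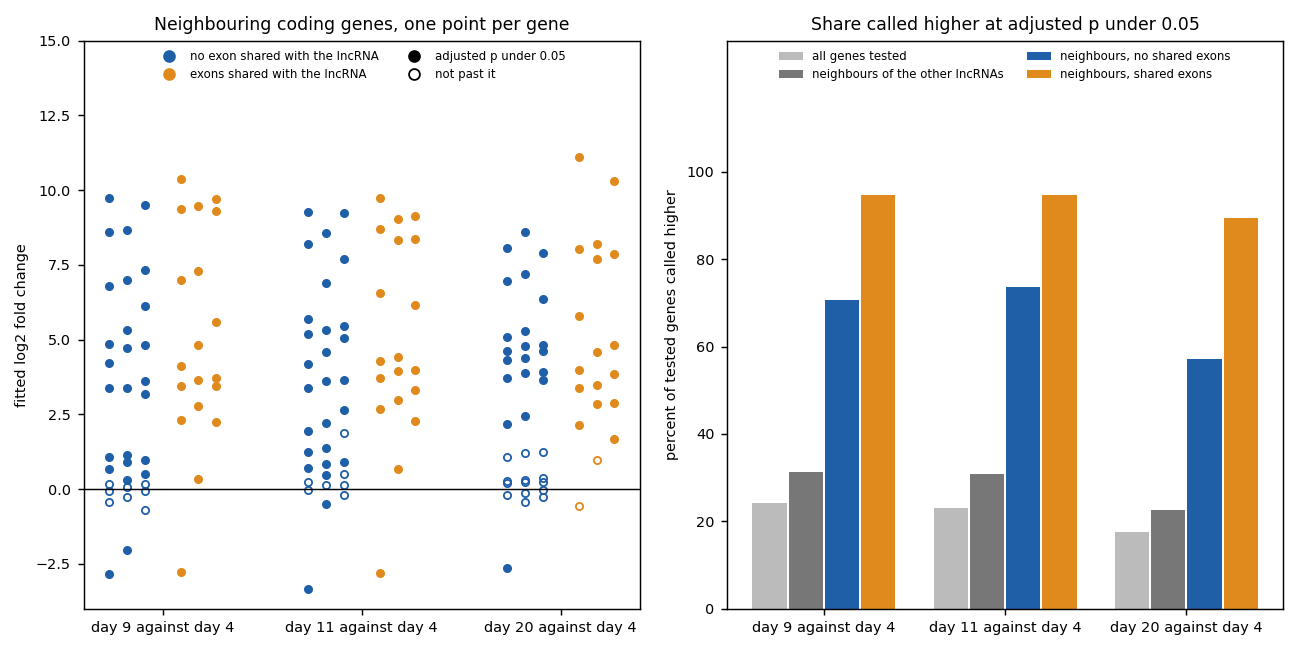
Left, fitted log2 fold change against day 4 of each neighbouring coding gene, blue without and orange with exon bases shared with its lncRNA, filled where the adjusted p is under 0.05. Right, the percent of tested genes called higher, which on day 9 is 24.3 for all genes, 31.3 for neighbours of the other lncRNAs, 70.6 for neighbours without and 94.7 for those with shared exons.

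Of the 52 neighbours tested on all 3 days, 32 were higher on each. Of the 32, 17 share exon bases with their lncRNA and 15 do not. The share of all genes higher on all 3 days was not computed, so this count has no background beside it. Transcription factors among the 32 included GATA2, GATA3, GATA5, GATA6, FOXA2, HAND2, HOXB2, ISL1, MEIS1, NKX2-6, PROX1 and TBX2. The 32 also held the ligand genes TGFB2 and WNT5A, the matrix genes HAS2 and ADAMTS9 and the junction genes DSP and PKP2. MEIS1 rose on day 9 by a log2 fold change of 9.32 ± 0.27 (SE), adjusted p = 4.7e-07, from 0.209 to 0.667 CPM early to 298, 306 and 314 CPM. NKX2-6, with no shared exons, rose by a log2 fold change of 8.66 ± 0.72 (SE), adjusted p = 7.1e-05. ADAMTS9, next to 2 of the 60, rose on day 9 by a log2 fold change of 6.99 ± 0.38 (SE), adjusted p = 1.1e-05. The 8 called higher on none of the 3 days were DBNL, MAGI2, MIB1, NTMT1, OPA1, SLCO4A1, SMUG1 and USP25. MIB1, which MIR133A1HG overlaps, was at 215 to 367 CPM over all libraries, and USP25, next to MIR99AHG, was at 90.8 to 125 CPM. SLCO4A1, 71736 bases from MIR1-1HG, was lower on day 9 by a log2 fold change of -2.84 ± 0.29 (SE), adjusted p = 1.3e-04.

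The late day of the highest mean was the same in lncRNA and neighbour for 33 of 58 pairs (56.9%), and for 1896 of 3521 pairs of the other lncRNAs (53.8%). Here the pairs of the 60 thus stood near the other pairs.

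Between the late days 9 of 59 and then 5 of 60 passed the test, and since the rule read the same libraries, the counts are given as a description. From day 9 to day 11, 6 of 59 were higher, where 1.39% of all genes were, and 3 were lower, where 1.00% were. TRDN-AS1 had too few counts to be tested. The 6 were MIR100HG, MIR99AHG, MIR133A1HG, MIR122HG, MAGI2-AS3 and LINC00963, so 4 of the 7 microRNA hosts were among them. MIR100HG had the largest log2 fold change of the 6, 4.60 ± 0.45 (SE), adjusted p = 0.0126, followed by MIR133A1HG with a log2 fold change of 4.50 ± 0.78 (SE), adjusted p = 0.037. MIR99AHG had a log2 fold change of 3.33 ± 0.56 (SE), adjusted p = 0.0299, MIR122HG a log2 fold change of 2.70 ± 0.47 (SE), adjusted p = 0.0341, MAGI2-AS3 a log2 fold change of 1.68 ± 0.21 (SE), adjusted p = 0.0155 and LINC00963 a log2 fold change of 0.92 ± 0.16 (SE), adjusted p = 0.0324. Lower were GATA3-AS1 with a log2 fold change of -1.96 ± 0.27 (SE), adjusted p = 0.0203, HOXB-AS1 with a log2 fold change of -1.57 ± 0.20 (SE), adjusted p = 0.0168 and MEIS1-AS3 with a log2 fold change of -1.48 ± 0.28 (SE), adjusted p = 0.0429. Of 54 neighbours tested LMO7 and PRSS23 were higher and GATA3 and MEIS1 lower. GATA3 had a log2 fold change of -1.51 ± 0.27 (SE), adjusted p = 0.0359, MEIS1 a log2 fold change of -0.98 ± 0.18 (SE), adjusted p = 0.042, and HOXB2 had a log2 fold change of -0.76 ± 0.41 (SE), adjusted p = 0.405. Without the plate 2 library of day 9 none of the 60 passed. Only 1 passed without the unlabelled day 9 library, and 1 without the plate 2 library of day 11. With all 15 libraries in one fit the 3 lower calls were lost. Of 13 alternatives, the single calls held in from 5 (MEIS1-AS3) to 12 (MIR100HG).

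From day 11 to day 20, 4 of the 60 were higher and 1 lower, where 1.12% and 0.435% of all genes were. Higher were LINC00881 with a log2 fold change of 5.20 ± 0.50 (SE), adjusted p = 0.0172, PRDM16-DT with a log2 fold change of 4.62 ± 0.55 (SE), adjusted p = 0.0173, HAND2-AS1 with a log2 fold change of 2.67 ± 0.32 (SE), adjusted p = 0.0173 and ENSG00000260244 with a log2 fold change of 2.06 ± 0.37 (SE), adjusted p = 0.0422. PCAT14 was lower, with a log2 fold change of -3.54 ± 0.43 (SE), adjusted p = 0.0173. The call of ENSG00000260244 held in 3 of 13 alternatives, with adjusted p (edgeR or DESeq2) from 2.3e-04 to 0.238, and was lost without any one of the 6 libraries. Of 54 neighbours tested 3 were higher, MAGI2, PRDM16 and ZNF436, and 4 lower, DUSP6, GATA2, ISL1 and TBX2. PRDM16 had a log2 fold change of 2.96 ± 0.57 (SE), adjusted p = 0.0497, and HAND2 had a log2 fold change of 1.21 ± 0.38 (SE), adjusted p = 0.16. TRDN-AS1 had a log2 fold change of 3.96 ± 0.81 (SE), adjusted p = 0.0567 and TRDN a log2 fold change of 1.80 ± 0.91 (SE), adjusted p = 0.376. No call among the 60 was left without any one of the 3 day 11 libraries, and 6 were called without the plate 2_3 library.

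A list of 42 lncRNAs known from heart and development held 12 of the 60. Of the other 30, 28 were listed in the counts. Because the rule had taken 12 of the list for their high late levels, the counts of the rest against day 4 are a description. From day 4 to day 9, 6 of 17 tested were higher (35.3%) and 6 lower (35.3%), where 24.3% and 24.7% of all genes tested were. From day 4 to day 11 the counts were 6 and 5 of 17 (35.3% and 29.4%), against 23.1% and 23.8% of all genes. To day 20 they were 7 and 4 of 18 (38.9% and 22.2%), against 17.6% and 13.3%. TBX5-AS1, beside the cardiac factor TBX5, had no count on day 4 and a mean of 1.11 CPM on day 9. FENDRR, a lncRNA of lateral mesoderm, had none on day 4 and a mean of 4.28 CPM on day 20. Both met the count filter only through their late libraries, so neither could come out lower and their levels are a description. MIAT, abundant in the undifferentiated cells with a mean of 251 CPM on day 4, was lower on day 9, with a log2 fold change of -5.00 ± 0.34 (SE), adjusted p = 2.7e-05. MALAT1 rose from day 4 to day 9 by a log2 fold change of 1.06 ± 0.16 (SE), adjusted p = 9.6e-04. Between days 9 and 11 none of 22 passed the edgeR test, where 1.39% of all genes were called higher and 1.00% lower. An unadjusted p under 0.05 was found for 7 of the 22 and for 3517 of all 20679 genes tested. DESeq2 called 4. LINC01405 alone of 24 was higher from day 11 to day 20, where 1.12% of all genes were. It rose by a log2 fold change of 5.28 ± 0.90 (SE), adjusted p = 0.0371.

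At the edge of the 60 the scores were close. ENSG00000278730, LINC02672 and LINC00561 entered with 3.54, 3.51 and 3.373, and SLIT3-AS1, MEIS1-AS2 and BANCR missed with 3.367, 3.366 and 3.259. LINC00561 was at 3.53, 6.43 and 2.67 CPM on day 11, its best late day. BANCR was at 0, 0 and 0.0363 CPM on day 9 and at 20.8, 7.53 and 3.43 CPM on day 20.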

How the data were processed

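Total RNA was depleted of ribosomal RNA and sequenced as stranded libraries. The authors mapped reads with STAR 2.5.2b and counted them per gene with featureCounts 1.5.1 on GRCh38, and removed ribosomal and mitochondrial genes. Deposited counts were the main unit, and the TPM values the authors computed from them were used to compare levels per length. The RNA integrity score and the fraction of uniquely mapped reads come from the deposited sample table. Days are those of the labels, whereas the methods name day 7 where the labels name day 9.

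Positions and biotypes were taken from GENCODE 44 (46872 of the listed genes matched). The neighbour of a lncRNA is the coding gene at the smallest distance, and a pair is divergent when it is head to head with starts within 5 kb. Pairs of days were tested with the quasi-likelihood test of edgeR 4.0.16 in R 4.3.3 on the 6 libraries compared, with TMM normalization, a minimum count of 10 in filterByExpr, two-sided, and Benjamini-Hochberg adjustment over all genes tested at 0.05. Scripts were tested on simulated counts. Alternatives were DESeq2 1.42.0, other normalizations, no filter, all 15 libraries in one fit, plate or lane as a block, and leaving out each library. The members and lists were chosen with earlier results of these data known. Named in detail were the first 20 by score, microRNA hosts, members of the known list, those past the threshold between late days, those whose neighbour is on a list, their neighbours, and ranks 58 to 63. Other members were named after their values were seen, to account for the 60, of which 1 counted in the totals is not reported here by name.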

Additional observations from a re-analysis of the deposited data

How the results depend on the processing

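The counts of neighbouring genes called against day 4 were within 1.5 times their value under each alternative run but 1: 40 to 48 on days 9 and 11 and 33 to 43 on day 20. The exception, chosen after seeing the data, was the plate as a replicate block for days 4 and 20. It left 1 residual degree of freedom and called 25 in place of 38, all higher. The plate blocks for days 4 and 11 and for days 9 and 11 left as many. The one for days 4 and 11 called 46, as the main fit did. The counts between late days were not stable. Of the 60, the 9 called from day 9 to day 11 became 20 with DESeq2, 15 without the filter, 18 with the plate as a replicate block and 0 at an adjusted p under 0.01, and leaving out one library gave 0 to 9. The 5 called from day 11 to day 20, 4 higher and 1 lower, became 20 with DESeq2, 9 higher and 11 lower. With all 15 libraries in one fit they became 21, 11 higher and 10 lower. They became 0 with the plate block and 0 at 0.01, and leaving out one library gave 0 to 6. Every fit with a library left out has fewer degrees of freedom. From day 11 to day 20 the count was 0 without any one day 11 library. Without the plate 2, 2_3 or 6_1 library of day 20 it was 4, 6 or 5. The cause of the differences was not tested. Plates with both days had correlations of deviations of 0.143 and 0.382 for days 9 and 11, and of -0.178, 0.003 and 0.393 for days 11 and 20, so that the plates are not shown to pair the samples. The 2 pairs on plate 2 for days 4 and 20 had -0.098 and 0.117. In these blocks and correlations labels 2 and 2_3 were taken as plate 2, and labels 6 and 6_1 as plate 6. The labels do not say whether these were the same plates. For days 4 and 9 no paired analysis was possible because the plate block leaves no residual degrees of freedom.

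Of the known lncRNAs outside the 60, none was called from day 9 to day 11, but 4 were with DESeq2, 1 with all libraries in one fit, 3 without the filter, 6 with the plate block, 3 with the lane block, and 0 to 1 when one library was left out. The 1 called from day 11 to day 20 became 3 with DESeq2 or all libraries, 0 with the plate block, the lane block or at 0.01, and 0 to 1 with a library left out. The 11 called from day 4 to day 20 became 19 with DESeq2 or all libraries, 17 without the filter, 3 with the plate block and 6 at 0.01, and 8 to 17 with a library left out, the 17 without the plate 2 library of day 20.

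Ranking by deposited TPM kept 38 of the 60, a pseudocount of 0.1 CPM kept 42, means in place of extremes kept 45, TMM library sizes kept 56, and leaving out one library kept 47 to 60. No result reversed. Among genes named singly 150 values lost their call with the same direction and 1664 kept it. Expected reads in the plate 2_3 library limit what can be read from day 20 levels of the 21 lncRNAs where they exceed 25% of the count.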
